A study of Capra hircus with 9 samples.

Results

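The genes described here are 10 members of the stress pathways that begin at the ribosome and the endoplasmic reticulum (ER). They were taken by symbol from a table of 25671 gene rows counted in the goat uterus. The ATF4 branch held 5 genes (ATF4, DDIT3, ASNS, TRIB3 and SESN2) and the chaperone branch held 5 (HSPA5, XBP1, DNAJB9, HERPUD1 and PDIA4). All 10 were found, and all 10 passed the filter on low counts. Each also carried a gene identifier with the same symbol in the RefSeq table of assembly ARS1.2.

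The samples were uterus of Liaoning Cashmere goats (Capra hircus), a fibre breed, labelled day 6, day 16 or day 19 peri-implantation, with 3 libraries a day. The labels give no treatment or genotype. The sample labels count the days around implantation without naming the starting event, the design text speaks of them as ages, and neither says whether the libraries of a day came from separate animals. P-values therefore measure the spread between these libraries, which may be technical. The labels also differ on the tissue, naming uterus, endometrial epithelium and testis in different fields. Stromal collagen, smooth muscle and epithelial markers were present in every library (EPCAM stood at 186 to 423 CPM, counts normalized to library size as defined below), and 2 of the 7 testis germ cell markers found in the table, SYCP3 and TNP1, had 0 counts throughout, with the 7 summing to at most 2.25 CPM in a library. Of 10 listed trophoblast markers only 4 were found by symbol, and 1 of them passed the filter on low counts. These 4 summed to 1.69 to 6.18 CPM. Others, IFNT among them, were not found, so the low sum does not show that trophoblast was absent.

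The integrated stress response is a brake on protein synthesis. Kinases that sense unfolded protein in the ER, missing amino acids, viral RNA or heme shortage phosphorylate the initiation factor eIF2, which lowers translation in general and raises translation of the mRNA of ATF4. ATF4 is a transcription factor that then switches on genes for amino acid supply, for tRNA charging and, through DDIT3 (also called CHOP), for cell death. The unfolded protein response of the ER has further arms, in which the sensors IRE1 (gene ERN1) and ATF6 raise chaperones and degradation factors, IRE1 by splicing the mRNA of XBP1. A secretory tissue such as the uterine lining relies on these chaperones to fold its exported proteins. Counts per gene show neither ATF4 protein nor the splicing of XBP1.

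Levels are given as CPM, a gene's counts relative to the total of its library scaled with edgeR's TMM factors. Changes are log2 fold changes from edgeR's quasi-likelihood test, fitted to all 9 libraries and adjusted by Benjamini-Hochberg over the 16098 genes tested, with a call at an adjusted p under 0.05. The libraries held 8712751 to 11074693 counts. Among those of day 19, replicate 1 stood apart: ribosomal protein genes held 2.42% of its counts, against 6.61% and 5.64% in replicates 2 and 3 and 3.64% to 4.34% at the earlier days. Mitochondrial genes held 0.639% there, against 1.54% and 1.34% in its fellow replicates and 1.94% to 3.27% at the earlier days. Replicates 2 and 3 of day 19 thus also lay outside the earlier ranges, above them for ribosomal protein genes and below for mitochondrial genes. Fits that leave out day 19 replicate 1 rest day 19 on those libraries alone.

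Between day 6 and day 19 the ATF4 branch rose while the chaperones proper did not pass the test. Of the ATF4 branch 4 of 5 genes were higher at day 19, DDIT3 4.98-fold, TRIB3 4.30-fold, ATF4 3.39-fold and SESN2 2.39-fold, and ASNS did not pass. Of the chaperone branch the transcription factor gene XBP1 was higher, 1.73-fold, and HSPA5, DNAJB9, HERPUD1 and PDIA4 did not pass. Of all genes tested 22.9% were called in this comparison, 12.7% as higher and 10.2% as lower, against 5 of the 10 members, all of them higher. Without overlap between the days, 4 ATF4 branch genes and 2 chaperone branch genes (XBP1 and HERPUD1) lay above day 6, as did 19.6% of all genes tested, while 18.9% lay below. The median log2 fold change was 1.76 over the ATF4 branch, -0.06 over the chaperone branch and 0.02 over all genes tested.

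**Figure D1:**
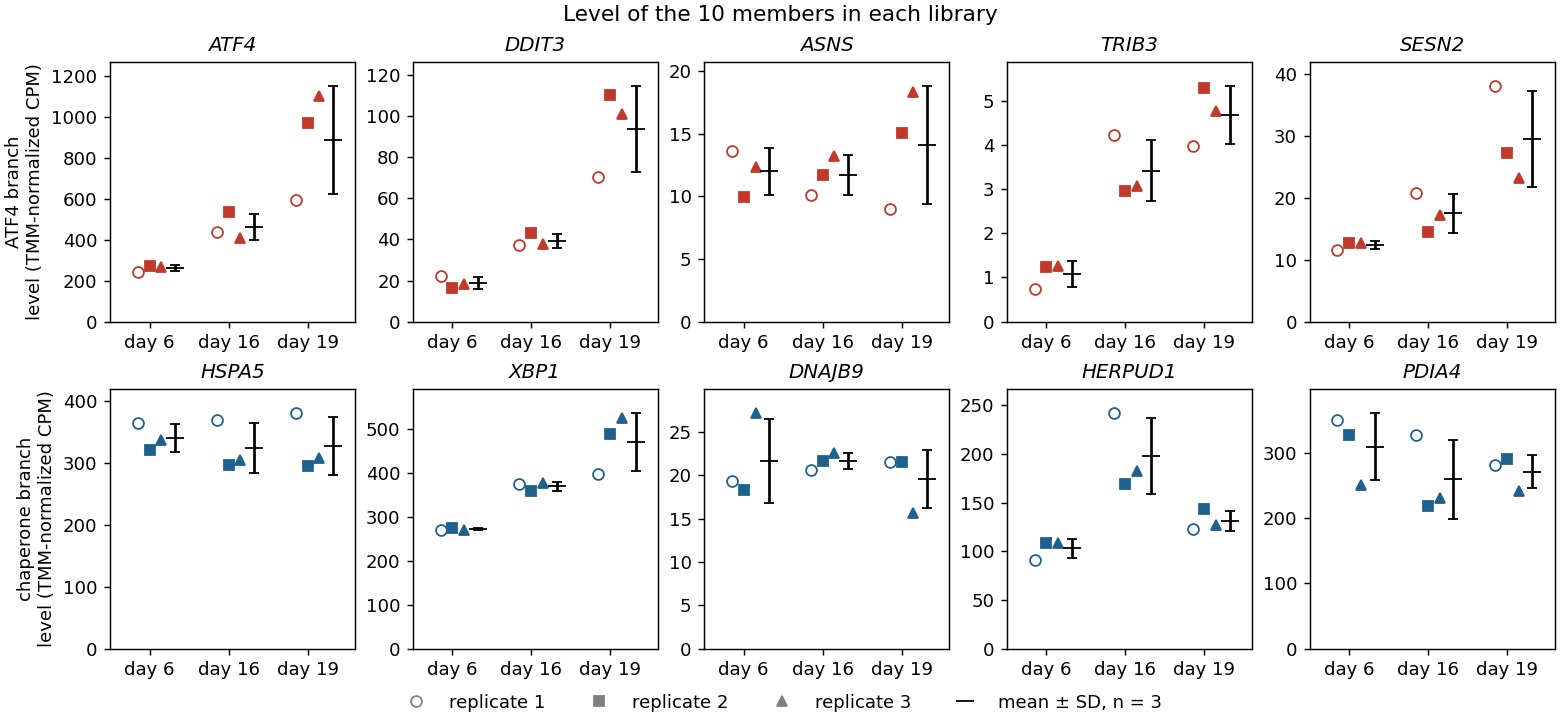
Level of each member (TMM-normalized CPM, vertical axes starting at 0 and differing between panels) in the 9 libraries, with symbols for the replicates and bars for the mean ± SD of a day (n = 3). The upper row holds the ATF4 branch and the lower row the chaperone branch; ATF4 lies between 245 and 273 CPM at day 6 and between 592 and 1101 CPM at day 19, while HSPA5 lies between 295 and 382 CPM throughout.

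ATF4, the transcription factor at the centre of the integrated stress response, stood at 245, 273 and 267 CPM in day 6 replicates 1, 2 and 3. It stood at 439, 534 and 411 CPM at day 16 and at 592, 970 and 1101 CPM at day 19. The 3 days did not overlap, and their order was day 6, day 16, day 19, with the lowest day 19 value in replicate 1. The rise from day 6 to day 19 was 1.76 on the log2 scale (SE 0.26, 95% interval 1.19 to 2.34; edgeR, adjusted p = 0.00167). Each single step missed the threshold, with adjusted p of 0.0813 for day 16 against day 6 and 0.0855 for day 19 against day 16. Neighbouring days of ATF4 are therefore not told apart by this test, although DESeq2 called both steps (adjusted p = 0.0183 and 0.00728). Without day 19 replicate 1, edgeR called them too, at 0.00295 and 0.000277.

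DDIT3, a factor that ATF4 induces and that promotes cell death under lasting stress, had the smallest adjusted p of the members for day 19 against day 6. It stood at 22.1, 16.2 and 18.2 CPM at day 6, 37.2, 43.3 and 37.6 CPM at day 16, and 70.3, 110 and 101 CPM at day 19. No library of a later day reached down into the range of an earlier one. DDIT3 was the only member called in all 3 comparisons, with log2 fold changes of 1.06 (SE 0.21; edgeR, adjusted p = 0.0134), 1.25 (SE 0.21; 0.0407) and 2.32 (SE 0.22; 0.000216) for day 16 against day 6, day 19 against day 16 and day 19 against day 6. The call of day 19 against day 6 held without each of the 9 libraries in turn. The call of day 16 against day 6 was lost without day 6 replicate 2 (0.0688), day 6 replicate 3 (0.0706) or day 16 replicate 2 (0.0606). For day 19 against day 16 it was lost without each of the other 8 libraries in turn (0.0747 to 0.175), and held without day 19 replicate 1 (0.000115).

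TRIB3, a pseudokinase that DDIT3 and ATF4 induce and that restrains both ATF4 and the kinase AKT, was the scarcest member. It had 8, 12 and 13 counts in the day 6 libraries, or 0.743, 1.24 and 1.27 CPM. It reached 4.21, 2.96 and 3.07 CPM at day 16 and 3.98, 5.29 and 4.76 CPM at day 19. Both later days lay above day 6 without overlap, and they overlapped each other. The change was 1.65 (SE 0.36; edgeR, adjusted p = 0.0202) for day 16 against day 6 and 2.10 (SE 0.36; 0.00364) for day 19 against day 6. The day 16 call was lost without day 6 replicates 1 (0.076), 2 (0.0619) or 3 (0.066) and without day 16 replicates 1 (0.0813) or 2 (0.0508). The day 19 call held without each library.

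SESN2, a sensor protein that lowers mTORC1 signalling when leucine is short, followed a different order within day 19. Its levels were 11.6, 12.7 and 12.8 CPM at day 6, 20.9, 14.5 and 17.2 CPM at day 16, and 38.2, 27.3 and 23.2 CPM at day 19. Its highest value was in day 19 replicate 1, the library in which ATF4, DDIT3 and TRIB3 had their lowest day 19 values. The change was 1.26 (SE 0.24; edgeR, adjusted p = 0.0057) for day 19 against day 6, and it was called without each library in turn. The other steps were 0.50 (adjusted p = 0.262) and 0.75 (0.109; 0.0375 without day 19 replicate 1).

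ASNS, the enzyme that makes asparagine and a widely used readout of ATF4 activity, passed the test in none of the 3 comparisons (edgeR, and 0 of 3 also in DESeq2); it had no unadjusted p under 0.05 either, a level that 21.1%, 24.5% and 38.1% of all genes reached for day 16 against day 6, day 19 against day 16 and day 19 against day 6. It stood at 13.6, 9.99 and 12.4 CPM at day 6, at 10.1, 11.7 and 13.3 CPM at day 16, and at 9.03, 15.1 and 18.3 CPM at day 19. The 3 days overlapped, and day 19 held both the lowest and the highest value. Its log2 fold change for day 19 against day 6 was 0.23, with a 95% interval of -0.39 to 0.86 (edgeR, adjusted p = 0.564). The table also holds 2 rows described as asparagine synthetase-like, with at most 28 counts together in a library against at least 93 for ASNS, so its level is uncertain if the counting split reads between them.

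HSPA5 encodes BiP, the main Hsp70 chaperone of the ER, which also holds the stress sensors inactive. Its levels were 365, 321 and 337 CPM at day 6, 370, 296 and 306 CPM at day 16, and 382, 295 and 308 CPM at day 19. The days overlapped fully, and replicate 1 was the highest library of each day. Replicate numbers mark no shared animal or batch in the labels. The change for day 19 against day 6 was -0.06 (95% interval -0.47 to 0.36; edgeR, adjusted p = 0.846).

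PDIA4, a disulfide isomerase that works beside BiP, stood at 350, 328 and 251 CPM at day 6, 328, 218 and 231 CPM at day 16, and 281, 290 and 242 CPM at day 19. DNAJB9, the co-chaperone ERdj4 that recruits BiP to the sensor IRE1, stood at 19.3, 18.3 and 27.2 CPM, then 20.6, 21.6 and 22.5 CPM, then 21.5, 21.5 and 15.7 CPM. For both genes the days overlapped. The changes for day 19 against day 6 were -0.19 (95% interval -0.68 to 0.30; edgeR, adjusted p = 0.547) for PDIA4 and -0.15 (-0.63 to 0.34; 0.65) for DNAJB9. A p that misses the threshold does not show that these levels were equal.

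XBP1, the transcription factor whose spliced form drives the expansion of the ER in secretory cells, was the member of this branch called as higher at day 19. It stood at 271, 276 and 271 CPM at day 6, 374, 359 and 377 CPM at day 16, and 398, 490 and 527 CPM at day 19. The days did not overlap. The change for day 19 against day 6 was 0.79 (SE 0.18; edgeR, adjusted p = 0.0119), lost at 0.058 without day 6 replicate 3. The single steps of 0.44 and 0.35 missed the threshold (adjusted p = 0.176 and 0.242), and without day 19 replicate 1 both passed (0.0155 and 0.00847). Plasma cells are rich in XBP1. The summed level of 11 B and plasma cell markers was 67.6 to 117 CPM in the day 6 libraries, 116 to 403 CPM in those of day 16 and 43.1 to 96.3 CPM in those of day 19. At day 16 these markers had a median log2 fold change of 2.6 against day 6, with 6 of 7 tested above 0. Of the 7, edgeR called 0 (4 were higher at an unadjusted p under 0.05 and DESeq2 called 3). Their sum was 403, 116 and 133 CPM in day 16 replicates 1, 2 and 3, where XBP1 stood at 374, 359 and 377 CPM. The median of these markers was -2.68 for day 19 against day 16 and -0.08 for day 19 against day 6, the comparison in which XBP1 was called. Their part in the change of XBP1 was not tested.

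HERPUD1, an ER membrane protein that assembles the machinery for degrading misfolded proteins, had its highest levels at day 16. It stood at 91.4, 109 and 109 CPM at day 6, 243, 169 and 183 CPM at day 16, and 123, 143 and 127 CPM at day 19. Day 16 lay above both other days without overlap. The rise to day 16 was 0.94 (SE 0.19; edgeR, adjusted p = 0.0124), and it missed the threshold without day 6 replicate 1 (0.0574), day 6 replicate 3 (0.0553) or day 16 replicate 1 (0.0528). The change from day 16 to day 19 was -0.59 with an adjusted p of 0.109 in edgeR, 0.0367 in DESeq2 and 0.0281 without day 19 replicate 1. The highest library, day 16 replicate 1, was also the highest of its day for HSPA5 and PDIA4, and it held 210 CPM of the immunoglobulin joining chain JCHAIN against 32.2 and 24.1 CPM in day 16 replicates 2 and 3. Without that library the rise of HERPUD1 was 0.77. The part of these plasma cell transcripts in it was not tested.

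**Figure D2:**
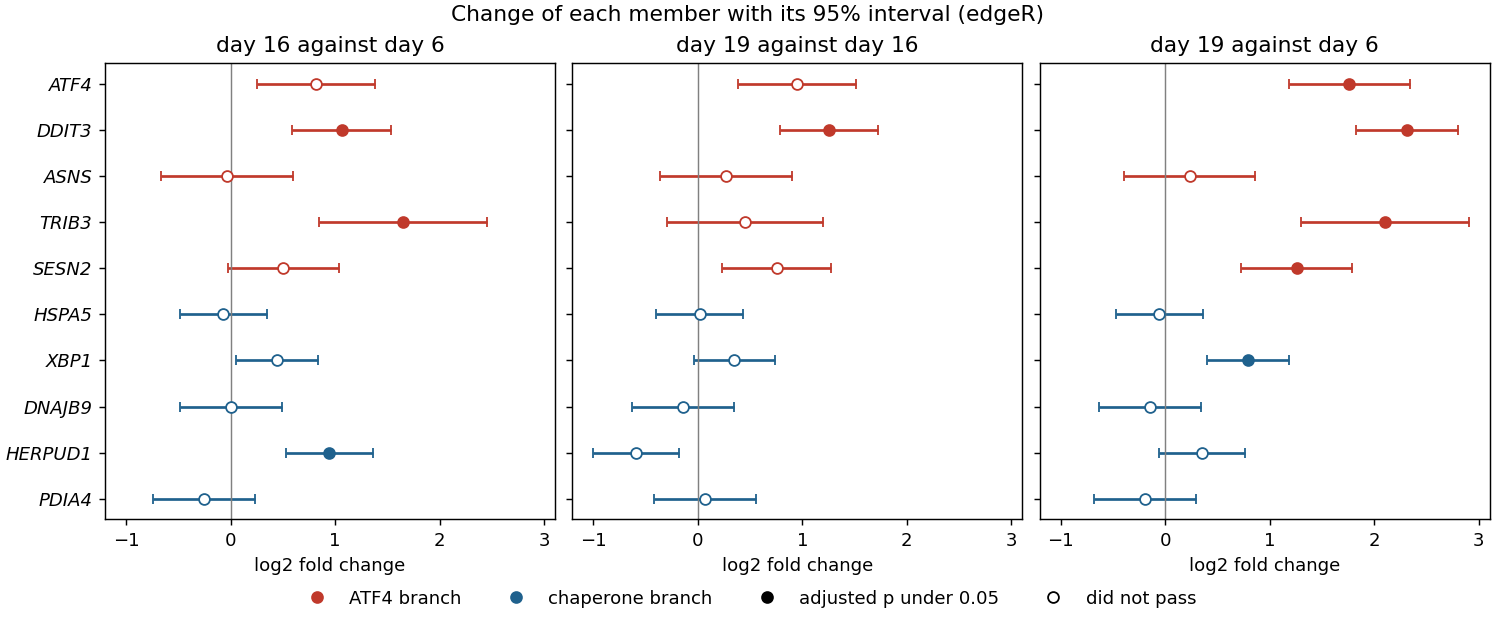
Log2 fold change of each member (horizontal axis) in the 3 comparisons, with 95% intervals from the edgeR fit to all 9 libraries; filled points have an adjusted p under 0.05. In day 19 against day 6 the intervals of ATF4, DDIT3, TRIB3, SESN2 and XBP1 lie above 0, and those of ASNS, HSPA5, DNAJB9, HERPUD1 and PDIA4 include it.

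Day 16 against day 6 asked which members had already changed at the middle time point. DDIT3 rose 2.09-fold, TRIB3 3.14-fold and HERPUD1 1.92-fold, so 2 of 5 ATF4 branch genes and 1 of 5 chaperone branch genes were called. Over all genes tested 8.86% were called, 5.12% as higher and 3.74% as lower. The number of members called was 3 with all libraries, 0 without day 6 replicate 3, 1 without day 6 replicates 1 or 2 or day 16 replicates 1 or 2, and 5 without day 19 replicate 1 or with DESeq2, where ATF4 and XBP1 joined the others. In levels, 4 ATF4 branch genes (all but ASNS) and 2 chaperone branch genes (XBP1 and HERPUD1) lay above day 6 without overlap at day 16, as did 19.9% of all genes tested, with 18.8% below.

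Day 19 against day 16 asked what changed further. DDIT3 was the member called, 2.38-fold higher, where 1.2% of all genes tested were called 0.516% as higher and 0.683% as lower. In the chaperone branch edgeR called 0 of 5 genes. HERPUD1, with a negative change, was the 1 gene that DESeq2 called there and the 1 gene under 0.05 before adjustment in edgeR. DESeq2 called 4 members in all, ATF4, DDIT3 and SESN2 as higher and HERPUD1 as lower. Without day 19 replicate 1 edgeR called those 4 and XBP1, where 21.6% of all genes tested were called as higher and 23.1% as lower. Without overlap, ATF4, DDIT3, SESN2 and XBP1 lay above day 16 and HERPUD1 below it; 11.9% of all genes lay above and 12% below in this way. The comparisons with day 6 share the day 6 libraries and both steps share those of day 16, so their changes are not independent of each other.

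The branches can be set side by side within each library by averaging log2 CPM over the 5 genes of a branch, each relative to its day 6 mean. The ATF4 branch averaged 0.77 ± 0.04 at day 16 and 1.47 ± 0.23 at day 19, and the chaperone branch 0.21 ± 0.15 and 0.15 ± 0.07 (SD, n = 3). The difference between them lay between -0.03 and 0.04 in the day 6 libraries, between 0.44 and 0.66 at day 16, and between 1.04 and 1.53 at day 19. The 3 days did not overlap in this difference, which is given as a description with no test. The smallest day 19 difference, 1.04, was that of replicate 1.

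**Figure D3:**
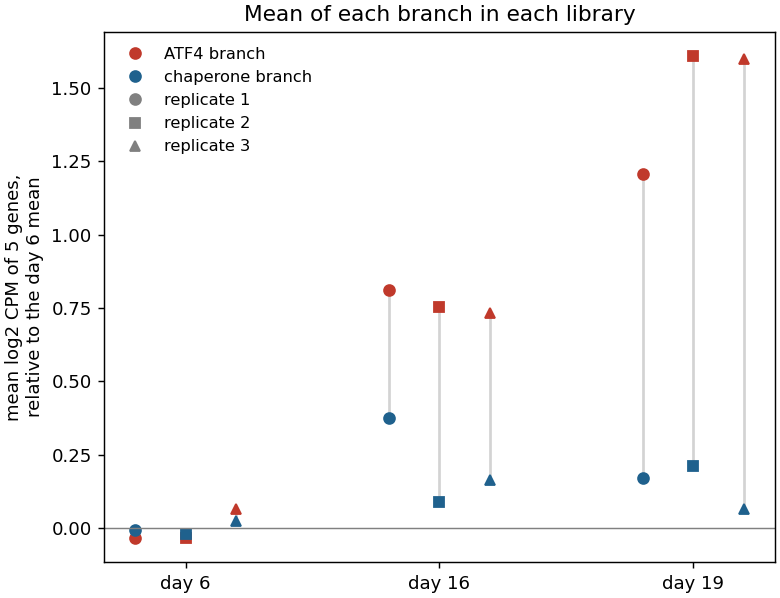
Mean log2 CPM of the 5 ATF4 branch genes and of the 5 chaperone branch genes in each library, relative to the day 6 mean of each gene; grey lines join the means of a library. The ATF4 branch lies between 0.73 and 0.81 at day 16 and between 1.21 and 1.61 at day 19, while the chaperone branch stays between 0.07 and 0.37 at both days.

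The likeness of the members across libraries is given as a description. ATF4, DDIT3, TRIB3, SESN2 and XBP1 were taken because they were called higher at day 19, and the same libraries hold that rise, so high values among them follow from the choice. Over the 9 libraries, Pearson's r of log2 CPM lay between 0.75 and 0.98 for the 10 pairs of these genes. It was 0.98 for ATF4 with XBP1, 0.47 for ATF4 with ASNS and -0.41 for ATF4 with HSPA5. These values describe 9 libraries that share their days and their scaling. Among all genes tested, the 5 most like ATF4 were PSME2, HAX1, SARS, EMX2 and RAC1, with r between 0.987 and 0.99. SARS, the cytosolic seryl-tRNA synthetase, is itself on the list of ATF4 targets below, and PSME2, HAX1, EMX2 and RAC1 are on none of the lists. For HSPA5 the 5 most alike were SPAG1, CTNS, MTHFD1L, PCSK7 and the unnamed LOC102171743, with r between 0.915 and 0.933, and none of them is on the list of ER chaperones.

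Upstream of ATF4, the kinases of eIF2 did not move together. EIF2AK2, the kinase PKR that is activated by double-stranded RNA and induced by interferon, stood at 11.1, 13.3 and 10.4 CPM at day 6, 62.1, 95.3 and 38.3 CPM at day 16, and 153, 26.4 and 19.1 CPM at day 19. Day 19 replicate 1 was the highest library, whereas for ATF4 it was the lowest of its day. For day 16 against day 6 the change of EIF2AK2 was 2.49 (SE 0.73). Its adjusted p was 0.0669 in edgeR, 0.00238 in DESeq2 and 0.00109 in edgeR without day 19 replicate 1. EIF2AK2 was called for day 19 against day 6 at 2.51 (SE 0.73; edgeR, adjusted p = 0.035), but the change was 0.98 without day 19 replicate 1 (0.0392), and the call was lost without day 6 replicates 1, 2 or 3 (0.109, 0.0921 and 0.113) or day 16 replicate 1 (0.0561). EIF2AK3, the ER kinase PERK, went the other way at -0.64 (SE 0.19; 0.0359), and this call held without day 19 replicate 1 (0.000541) and was lost without each of the other 8 libraries (0.0576 to 0.125). EIF2AK1 and EIF2AK4, the heme-regulated kinase and the amino acid sensor GCN2, did not pass for day 19 against day 6, at 0.03 and -0.32 (adjusted p = 0.9 and 0.16; EIF2AK4 passed at 0.0273 without day 19 replicate 1).

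PPP1R15A, also called GADD34, is the ATF4-induced phosphatase subunit that restores eIF2 and ends the response. It stood at 35.9, 35.3 and 46.9 CPM at day 6, 83.8, 111 and 120 CPM at day 16, and 90.4, 141 and 129 CPM at day 19. Both later days lay above day 6, by 1.41 (SE 0.23; edgeR, adjusted p = 0.00483) and 1.61 (SE 0.23; 0.00151), and both calls held without each library. Its constitutive relative PPP1R15B did not pass, at 0.56 and 0.79 (0.4 and 0.109; at day 16 it passed at 0.00904 without day 19 replicate 1). Over the whole list of 15 kinases, eIF2 and eIF2B subunits and brakes, 1 gene rose at day 16 and 4 rose and 1 fell at day 19 against day 6. Over all genes tested 5.12% were called as higher at day 16, and 12.7% as higher and 10.2% as lower at day 19. Without day 19 replicate 1 the counts of the list were 5 higher at day 16, and 7 higher with 5 lower at day 19. That fit called 10.7% of all genes tested as higher at day 16, and 27.2% as higher and 27% as lower for day 19 against day 6.

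Of the ER membrane sensors, ERN1 was lower at day 19 and ATF6 did not pass the test. ERN1, which encodes IRE1, stood at 99.9, 107 and 84.9 CPM at day 6 and 69.5, 26.8 and 27.2 CPM at day 19, a change of -1.24 (SE 0.36; edgeR, adjusted p = 0.0354). The change was -1.84 without day 19 replicate 1 (7.04e-05), and the call was lost without day 6 replicates 1, 2 or 3 (0.0912, 0.101 and 0.0708), day 16 replicates 1 or 3 (0.0576 and 0.0526) or day 19 replicates 2 or 3 (0.106 and 0.107). ATF6 changed by 0.11 (95% interval -0.32 to 0.53; 0.707). CREB3L4, a relative of ATF6, fell from 132 ± 12.4 CPM at day 6 to 8.17 ± 6.23 CPM at day 19, a log2 fold change of -4.01 (SE 0.58; 0.00163), while CREB3 rose from 80.7 ± 7.03 to 203 ± 78.9 CPM, or by 1.33 (SE 0.27; 0.00831), and both calls held without each library (SD, n = 3 each). Over the list of 10 sensors and their proteases 2 rose and 5 fell at day 19 against day 6, beside 12.7% and 10.2% of all genes tested. The median of this list was -0.91. The other genes called were CREB3L1 as higher and CREB3L2 and the proteases MBTPS1 and MBTPS2 as lower; the calls of CREB3L1 and CREB3L2 held in 3 and 1 of the 9 fits that left out a library.

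Known targets of ATF4 were grouped as regulators, genes of amino acid supply and aminoacyl-tRNA synthetases, and the lists were not tested against each other. Of 11 tested regulators, 6 rose and 2 fell at day 19 against day 6 (median log2 fold change 0.81), beside 12.7% and 10.2% of all genes tested. ATF3, a stress-induced repressor, went from 2.48 ± 0.346 CPM on day 6 to 78.1 ± 41.3 CPM on day 16 and 55.5 ± 23.3 CPM on day 19. NUPR1, a small stress-induced chromatin protein, stood at 111, 102 and 114 CPM at day 6, at 563, 635 and 460 CPM at day 16, and at 537, 2293 and 2105 CPM at day 19. The changes for day 19 against day 6 were 4.48 (SE 0.46; edgeR, adjusted p = 0.000308) for ATF3, 3.92 (SE 0.50; 0.000878) for NUPR1 and 1.5 (SE 0.30; 0.00744) for ATF5, and all of these held without each library. As with ATF4 and DDIT3, the lowest day 19 level of NUPR1 was in replicate 1. The hormone gene FGF21 was among the genes that fell, with 12, 31 and 12 counts at day 6 and 0 in every day 19 library, and VLDLR, a lipoprotein receptor, changed by -1.14 (SE 0.33; 0.0325; called in 4 of the 9 fits that left out a library). At day 16 the regulators called were ATF3, NUPR1 and GDF15, each of them higher; the NUPR1 call held in 6 of those 9 fits.

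Targets of amino acid metabolism went in both directions. Of 18 tested, 2 rose and 5 fell at day 16, and 5 rose and 6 fell at day 19 against day 6 (median -0.15). The called share was 38.9% at day 16 and 61.1% at day 19, beside 8.86% and 22.9% of all genes tested. PSAT1 and PHGDH, enzymes of serine synthesis, had the most negative changes of the list. PSAT1 stood at 446, 483 and 462 CPM at day 6, at 24.9, 19.7 and 13.3 CPM at day 16, and at 8.35, 17.9 and 20.0 CPM at day 19. PHGDH, the entry enzyme of that path, went from 69.7 ± 13.4 to 5.86 ± 0.304 CPM at day 16 and to 7.38, 15.8 and 12.9 CPM in the day 19 libraries, and the folate enzyme MTHFD2 from 257 ± 1.80 to 49.8 ± 5.96 and 51.3 ± 12.3 CPM (SD, n = 3 each). For day 19 against day 6 the changes were -4.91 (SE 0.37; edgeR, adjusted p = 8.85e-05), -2.53 (SE 0.29; 0.000515) and -2.32 (SE 0.21; 0.000148), each called at both later days without any 1 library. PSPH, the last enzyme of serine synthesis, and ALDH18A1, which starts proline synthesis, were also called lower, at -1.55 and -2.10 for day 19 against day 6. These targets thus fell while the level of ATF4 mRNA was higher.

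Other genes of the same list rose. SLC3A2, the heavy chain of several amino acid exchangers, went from 108 ± 19.5 CPM at day 6 to 212 ± 31.9 at day 16 and 311 ± 13.4 at day 19, an increase of 1.53 for day 19 against day 6 (SE 0.20; edgeR, adjusted p = 0.000929). CTH, which makes cysteine from cystathionine, stood at 4.73, 5.56 and 4.58 CPM at day 6 and 130, 88.0 and 37.4 CPM at day 19, up by 4.10 (SE 0.76; 0.0054). Both held without each library at day 19. PCK2, the mitochondrial PEP carboxykinase, rose by 1.46 (SE 0.37; 0.0202), a call lost without day 6 replicates 1 or 2 (0.0724 and 0.0793) or day 19 replicates 2 or 3 (0.0665 and 0.057). GPT2, a mitochondrial transaminase, was called at day 16 and not at day 19, going from 137 ± 8.04 to 322 ± 98.1 and then 155 ± 53.5 CPM; its day 16 call was lost in 5 of the 9 fits that left out a library (adjusted p up to 0.127).

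The aminoacyl-tRNA synthetases, which charge tRNA and are induced by ATF4 as a group, had 5 of 12 higher and 0 lower at day 19 against day 6 in edgeR. Over all genes tested these shares were 12.7% and 10.2%. At an unadjusted p under 0.05, 0 synthetases were lower, and 0 in DESeq2. The 5 called as higher were WARS, CARS, SARS, TARS and YARS. SARS stood at 132, 136 and 136 CPM at day 6, 205, 212 and 166 CPM at day 16, and 254, 401 and 457 CPM at day 19, up by 1.46 (SE 0.23; edgeR, adjusted p = 0.00252). CARS rose by 1.57 (SE 0.25; 0.00255). WARS, which interferon also induces, rose by 2.19 (SE 0.37; 0.00336), and its highest level, 927 CPM, was in day 19 replicate 1. These 3 calls held without each library. At day 16 WARS was the synthetase called, at 2.00 (SE 0.36; 0.00921; 0.0541 without day 6 replicate 3). The median of the list was 0.36 for day 19 against day 6.

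Few other chaperones of the ER were called. Of 25 other ER chaperones and folding enzymes, 2 were higher at day 19 against day 6, MANF at 1.20 (SE 0.22; edgeR, adjusted p = 0.00516) and DNAJC1 at 1.0 (SE 0.20; 0.00678), and both calls held without each library. The median was 0.21, and 12.7% of all genes tested were called as higher and 10.2% as lower in this comparison. HSP90B1, the ER Hsp90, lay just outside at 0.61 (0.0506) and the lectin chaperone CALR at 0.52 (0.105). HYOU1 went from a mean of 72.9 CPM at day 6 to 74.6, 20.8 and 16.8 CPM in day 19 replicates 1, 2 and 3. UGGT1 went from 47.3 to 53.7, 3.00 and 4.02 CPM. All of these were chosen after their values were seen. At an unadjusted p under 0.05, 7 of the 25 were higher and 2 lower, and DESeq2 called 5 higher and 0 lower. Without day 19 replicate 1, 9 of the 25 were higher and 5 lower, with a median of 0.22, where edgeR called 27.2% of all genes tested as higher and 27% as lower. At day 16, 0 of 25 were called in edgeR, beside 8.86% of all genes tested. At an unadjusted p under 0.05, 3 were higher and 2 lower, and DESeq2 called 1 higher.

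Among 19 genes of ER-associated degradation, which retrotranslocates misfolded proteins to the proteasome, 3 were higher and 2 lower at day 19 against day 6. That share of 26.3% lay near the 22.9% called over all genes tested. SYVN1, the ubiquitin ligase HRD1 with which HERPUD1 works, fell from 312 ± 45.4 to 140 ± 33.7 CPM (SD, n = 3), a log2 fold change of -1.16 (SE 0.21; edgeR, adjusted p = 0.00518), and this held without each library. EDEM1, a mannosidase-like lectin of this path, changed by -0.91 (0.0257), and VIMP, UBE2J1 and DERL2 by 1.29 (0.0212), 1.12 (0.0221) and 0.86 (0.0334). These 4 calls held in 4, 5, 6 and 2 of the 9 fits that left out a library, in that order. At day 16 SYVN1 and NPLOC4 were lower, at -0.79 (0.0492) and -0.63 (0.0344), each in 2 of those 9 fits.

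Of 26 translocon and export genes, 2 rose and 3 fell at day 19 against day 6 (median -0.04). That share of 19.2% lay near the 22.9% of all genes tested. SSR1, a translocon subunit, fell by 1.09 on the log2 scale (SE 0.19; edgeR, adjusted p = 0.00408) and its partner SSR3 changed by 1.04 in the other direction (SE 0.28; 0.026). SSR1 held without each library, and SSR3 in 4 of 9 such fits. The cytosolic heat shock list, a separate response to misfolding outside the ER, had 6 of 12 higher and 0 lower in edgeR, beside 12.7% and 10.2% of all genes tested. In this list 1 gene was lower at an unadjusted p under 0.05 and 1 in DESeq2 (median 0.67). CRYAB and DNAJA1 led it at 2.53 (SE 0.34; 0.00118) and 1.52 (SE 0.20; 0.0011), and both held without each library. CRYAB is also abundant in muscle, and the summed level of 10 smooth muscle markers was 9923 to 35637 CPM at day 6 and 28528 to 46560 at day 19; their part in that value was not tested.

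**Figure D4:**
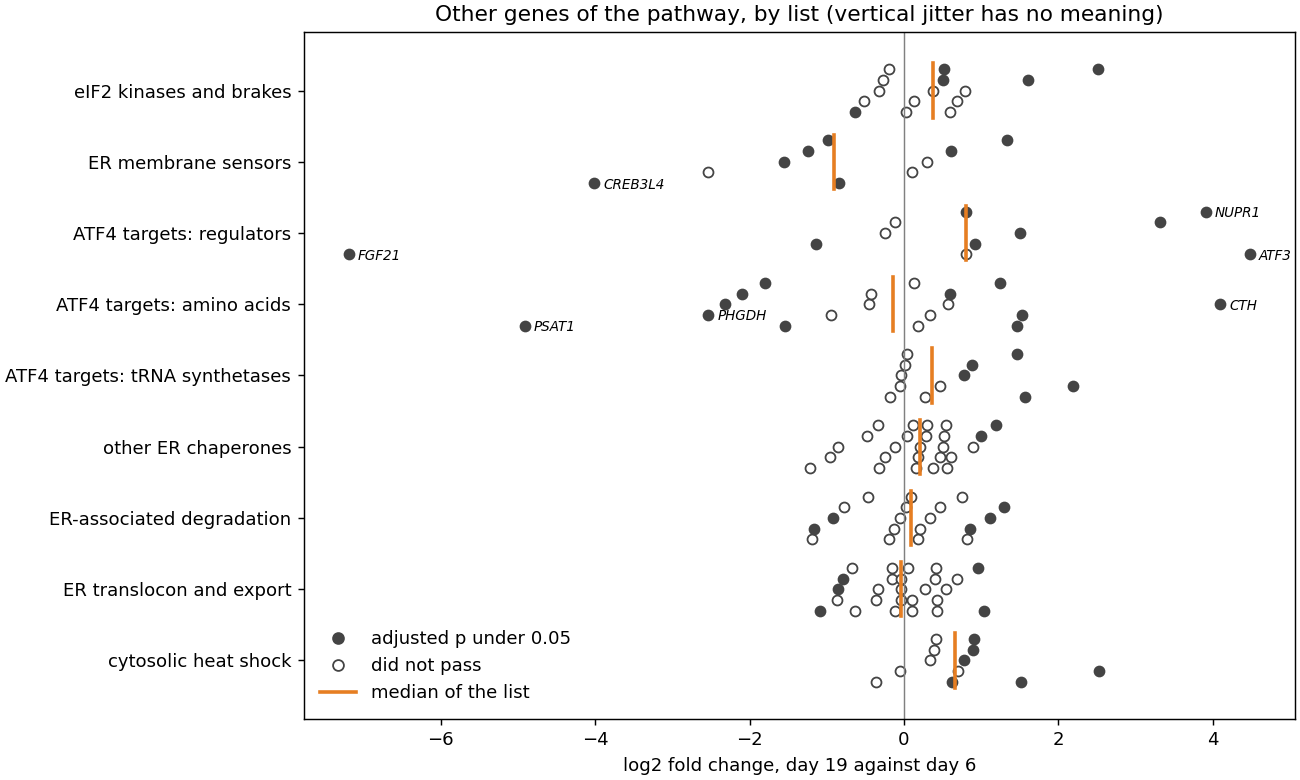
Log2 fold change for day 19 against day 6 (horizontal axis) of every tested gene in 9 pathway lists; filled points have an adjusted p under 0.05 and orange lines mark the median of a list. PSAT1 at -4.91 and CTH at 4.10 lie at the ends of the amino acid list, while the other ER chaperones centre on 0.21; the value of FGF21, with 0 counts at day 19, depends on the prior count of the fit.

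In all, 148 genes of these lists were tested. Of them 35 were higher and 19 lower for day 19 against day 6 (36.5%, beside 22.9% of all genes), 10 and 9 for day 16 against day 6 (12.8%, beside 8.86%), and 0 and 1 for day 19 against day 16, where 35 were higher and 13 lower at an unadjusted p under 0.05 and DESeq2 called 14 and 5. The gene called there was ALDH1L2, a mitochondrial folate enzyme, at -1.24 (SE 0.20; edgeR, adjusted p = 0.0377), lost without each library other than day 19 replicate 1 (0.0748 to 0.17).

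Immediate early genes, which rise within minutes of tissue handling as well as on growth signals, were examined as a separate list. Of 14 tested, 9 were higher at day 16 and 7 at day 19 against day 6, beside 5.12% and 12.7% of all genes tested. In the step between, edgeR called 0, beside 1.2% of all genes tested. There 2 immediate early genes were higher and 4 lower at an unadjusted p under 0.05, and DESeq2 called 1 in each direction. Their summed level was 296 to 433 CPM in the day 6 libraries, 1044 to 1467 CPM in those of day 16 and 770 to 1273 CPM in those of day 19. ATF3 is on this list as well. Their sums at day 16 and day 19 overlapped, as did the levels of TRIB3 and PPP1R15A. The levels of ASNS, HSPA5, DNAJB9 and PDIA4 overlapped between those days too, and also with day 6. ATF4, DDIT3, SESN2 and XBP1 were highest at day 19 without overlap, and HERPUD1 was highest at day 16 without overlap. Of all genes tested, 11.9% lay above day 16 at day 19 without overlap and 12% below. The part of handling in these values was not tested. In bulk RNA of this kind, a change in the number of cells of a type cannot be told apart from a change of RNA per cell. Summed epithelial markers lay at 1226 to 1651, 1466 to 1576 and 1029 to 2089 CPM on days 6, 16 and 19, and macrophage markers at 311 to 711, 535 to 823 and 963 to 1538 CPM. Of 10 epithelial markers 1 was higher and 2 were lower for day 19 against day 6, 6 of 8 tested macrophage markers were higher and 1 was lower, and 4 of 4 tested uterine gland markers were higher. Over all genes tested 12.7% were called as higher and 10.2% as lower there. The part of any of these cell types in the rise of the ATF4 branch was not tested.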

How the data were processed

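Per the labels' protocols, Trizol RNA was selected for poly(A), cut with RNase III and made into Ion Torrent libraries; the series design text names an Ion Proton as the sequencer. What the authors deposited is 1 table of raw counts, whole numbers with a column for each sample. The sources used here name no aligner, counting tool, genome build or annotation, nor whether strand was used, so reads of overlapping, antisense or near-identical genes cannot be told apart. Symbols came from the table, and for 464 of 9672 locus rows from RefSeq's table (ARS1.2) by gene identifier; no coordinates were used. Of the 154 listed pathway genes, 150 were found.

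The main test was edgeR 4.0.16's, run in R 4.3.3 (TMM, filterByExpr by day, robust quasi-likelihood fit, day as the only term; 16098 genes, common biological coefficient of variation 0.318). The standard error is the change divided by the root of F, and intervals use the fit's degrees of freedom. Log2 CPM used a prior count of 2. On simulated data for day 16 against day 6 (15856 genes), 4% of 100 genes changed 2-fold and 61% of 100 changed 4-fold were called, so a missed call says little about smaller changes. The simulation changed 200 genes, fewer than the 1427 called in the data, and the adjusted cut-off depends on that number. Recovery in the data, and in the other comparisons, may therefore differ. Alternatives were DESeq2 1.42.0, limma 3.58.1 voom with quality weights, RLE scaling, no filter, at least 1 CPM in 6 libraries, only the 6 libraries compared, a replicate block and each library left out; list counts without day 19 replicate 1 were added after seeing the data. No libraries agreed within sampling noise (lowest chi-square per degree of freedom 9.86 within a day).

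Members and lists were chosen with earlier results of these data known. Genes named were the members, the 4 eIF2 kinases, ERN1, ATF6, PPP1R15A and PPP1R15B, and per list, comparison and direction up to 3 called genes with the largest change and an average log2 CPM of at least 3; some called genes are given as counts only. GDF15, FGF21, PSPH, ALDH18A1, MBTPS1, MBTPS2, TARS, YARS, HSP90B1, CALR, HYOU1, UGGT1 and JCHAIN were named after their values were seen.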

Additional observations from a re-analysis of the deposited data

How the results depend on the processing

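The 3 counts of members rested on the tool and on single libraries to different degrees. For day 16 against day 6, the 3 members called by edgeR became 5 with DESeq2, with limma voom and when the fit held only the 6 libraries compared, and the 1427 genes called became 2238, 3811 and 3092. For day 19 against day 16, the 1 member called became 4 with DESeq2, 5 with voom and 0 with only the libraries compared, and the 193 genes became 1681, 7354 and 0. For day 19 against day 6, 5 members were called under each of these, and the 3684 genes became 9433 with voom and 2357 with only the libraries compared. RLE scaling, no filter and the stricter filter left every one of these 6 counts within 1.5 times. Leaving out each library in turn gave 0 to 5, 0 to 5 and 4 to 5 members, and 664 to 3345, 0 to 7331 and 1928 to 8891 genes, for the 3 comparisons in this order; the highest count of genes in each was the one without day 19 replicate 1. The cause was not tested. Adding the replicate block, 2, 0 and 5 members and 1100, 0 and 2899 genes were called, and TRIB3 (adjusted p = 0.0552, day 16 against day 6) and DDIT3 (0.0972, day 19 against day 16) were lost. The labels do not say what a replicate number stands for. Of 9 same-numbered pairs of libraries, 1 had deviations that correlated over 0.1 (r from -0.164 to 0.153). Pairs with different numbers reached 0.2. With 3 libraries a day, each centred on the mean of its day, these values cannot show whether the numbers mark a shared animal or batch.

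Of 480 alternative values of the members, 16 changed sign and 422 kept their side of the threshold; of 1168 for the other named genes these were 17 and 948, and in both groups 0 of the changes of sign were of a called change. With voom, HSPA5 changed to -0.093, EIF2AK2 to -1.40 and PPP1R15B to -0.31 for day 19 against day 16, and ATF6 to -0.11 for day 19 against day 6. The reversed change of EIF2AK2 itself passed the threshold, with an adjusted p of 0.00976 with voom and 0.00839 without day 19 replicate 1 (-1.50), against 0.987 in edgeR with all libraries. DNAJB9 for day 16 against day 6 became 0.012 with no filter and 0.013 with only the libraries compared, and 0.0047 with the block, where EIF2AK2 became -0.36 for day 19 against day 16. With each library left out, log2 fold changes for day 16 against day 6 ranged from -0.15 to 0.068 for ASNS, -0.11 to 0.20 for DNAJB9 and -0.043 to 0.13 for EIF2AK1. For day 19 against day 16 they ranged from -0.092 to 0.12 for HSPA5, -0.043 to 0.27 for PDIA4, -0.094 to 0.043 for EIF2AK1, -1.50 to 0.46 for EIF2AK2 and -0.32 to 0.48 for PPP1R15B. For day 19 against day 6 they ranged from -0.17 to 0.021 for HSPA5, -0.25 to 0.052 for DNAJB9, -0.055 to 0.097 for EIF2AK1 and -0.097 to 0.23 for ATF6. Depth limits TRIB3 most, with 8 to 13 counts a library at day 6.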
